A study of Mus musculus with 11 samples.

Results

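Zfp genes, the mouse genes named for a zinc finger protein and numbered in order of discovery, were described here by the acetylation of histone H3 at lysine 27 (H3K27ac) around them. The members were all regions of the authors' deposited table whose gene symbol starts with Zfp and a digit. Zfp36, Zfp36l1 and Zfp36l2, which encode RNA-binding proteins with another type of finger, were left out together with their 41 regions. This gave 781 of 56342 regions, held by 252 of 12081 gene symbols. The symbol of a region is the authors' assignment, which the distances in the table tie to a transcription start site (TSS), so a region far from a gene may act on another gene or on none.

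Most Zfp genes encode proteins with arrays of C2H2 fingers, in which a zinc ion holds a short loop that reads a few bases of DNA. Many of them carry a KRAB domain, which recruits Trim28 (KAP1) and through it the H3K9 methyltransferase Setdb1, heterochromatin protein 1 and the NuRD deacetylase complex, and so silences retroelements and imprinted genes. Members of the family arose by tandem duplication, and many lie in clusters of similar neighbours. H3K27ac itself marks active promoters and enhancers. It is laid down by acetyltransferases and removed by histone deacetylases.

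The cells were Beko, a mouse pre-T cell line, which is 1 line with no genotype difference between the groups. H3K27ac was profiled by chromatin immunoprecipitation and sequencing (ChIP-seq) after 24 h with apicidin at 0.01 mg/ml, with DAPT at 10 mg/ml or with DMSO alone, the doses being those of the labels, in 2 libraries each. Apicidin inhibits histone deacetylases and is labelled an HDAC3 inhibitor. DAPT, a gamma-secretase inhibitor (GSI), prevents the cleavage that releases the active part of Notch receptors. RBPJ, the DNA-binding partner of cleaved Notch, was profiled in 2 libraries of DMSO cells, and 1 input was sequenced for each treatment. The labels do not tell whether the 2 libraries of a treatment were separate cultures, so every p-value covers the spread between libraries, which may be technical.

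The authors' deposited table gives no value per library. Levels are therefore given as its base mean, the authors' mean of normalised counts over the libraries, and changes as its log2 fold changes over DMSO with their standard errors (SE). A fall or rise is thus relative to the authors' scaling of the libraries, and a change of total acetylation could not be read. A region was called where the authors' adjusted p was under 0.05. Both contrasts rest on the same DMSO libraries. All 11 markers of pre-T cells, such as Ptcra, Cd3e, Rag1 and Bcl11b, had at least 1 region, with a median base mean of 4795 for their strongest regions, and 10 had one over the TSS. Of 27 markers of B, myeloid, erythroid, natural killer, fibroblast, epithelial and neuronal cells, 14 had a region and 0 had one over the TSS. The base means of their strongest regions reached 1245, at the myeloid marker Itgam, whereas the lowest among the pre-T markers was 690.

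Acetylation lay at the promoters of most listed Zfp genes, in regions with lower base means and smaller widths than TSS regions as a whole. A region covered the TSS in 200 of the 252 genes, with 203 such regions, and in 181 genes it was also the strongest region of the gene. TSS regions made up 26.0% of Zfp regions and 14.0% of all regions in the authors' deposited table. Zfp TSS regions had a median base mean of 359 and a median width of 1474 bp, against 475 and 1929 bp for all TSS regions. A base mean is a count over the whole region, so it also reflects the width and gives no density. Only 1 region was listed for 109 genes, 2 to 5 for 116 genes and over 5 for 27 genes. Of 394 protein-coding Zfp symbols in RefSeq, 247 or 62.7% had a region. The share differed between chromosomes: 61 of 92 on chromosome 7, 27 of 37 on chromosome 13, 12 of 27 on chromosome 2 and 10 of 27 on chromosome 4. These shares were not computed over all genes, so they are not read as particular to Zfp genes. The regions were named on mm9, and 6 members matched RefSeq only by a synonym. A RefSeq symbol without a region may thus be absent from the authors' annotation, and it was not read as lacking acetylation.

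Promoter sequences are shown for a pick of Zfp genes with a called fall or rise with apicidin, so that their composition can be seen. They are not the ends of the response over the TSS, since Zfp956 fell further there than Zfp143, and Zfp658 rose further than both risers shown. The 250 bases before the RefSeq start (GRCm38.p6, 5′ to 3′ on the gene's strand) are in lower case, and capitals mark every match, on either strand, to the GC box GGGCGG, the CCAAT box CCAAT, the ETS-type site GGAAGTG and the ETS core CCGGAAG. The first 5 belong to genes with less acetylation after apicidin (for Zfp143, a protein that activates small nuclear RNA and many coding promoters, the 1st RefSeq start). Zfp786 and Zfp746 are neighbours in a cluster described further on.
Zfp518a, chr19:40894455-40894704, plus strand: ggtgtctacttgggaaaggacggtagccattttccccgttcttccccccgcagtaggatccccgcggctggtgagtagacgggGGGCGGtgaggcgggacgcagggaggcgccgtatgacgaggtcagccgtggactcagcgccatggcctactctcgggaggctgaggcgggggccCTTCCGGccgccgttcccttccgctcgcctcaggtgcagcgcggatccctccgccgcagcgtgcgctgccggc
Zfp433, chr10:81704575-81704824, plus strand: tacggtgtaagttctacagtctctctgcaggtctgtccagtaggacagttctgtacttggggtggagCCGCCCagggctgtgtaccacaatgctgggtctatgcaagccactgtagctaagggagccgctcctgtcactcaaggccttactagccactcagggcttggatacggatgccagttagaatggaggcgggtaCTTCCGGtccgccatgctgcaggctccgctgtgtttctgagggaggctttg
Zfp786, chr6:47830506-47830755, minus strand: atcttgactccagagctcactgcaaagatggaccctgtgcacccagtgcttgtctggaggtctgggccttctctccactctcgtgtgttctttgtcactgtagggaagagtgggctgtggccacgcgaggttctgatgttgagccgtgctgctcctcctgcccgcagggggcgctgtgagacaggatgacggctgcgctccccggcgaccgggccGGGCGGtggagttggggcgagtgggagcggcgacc
Zfp746, chr6:48086594-48086843, minus strand: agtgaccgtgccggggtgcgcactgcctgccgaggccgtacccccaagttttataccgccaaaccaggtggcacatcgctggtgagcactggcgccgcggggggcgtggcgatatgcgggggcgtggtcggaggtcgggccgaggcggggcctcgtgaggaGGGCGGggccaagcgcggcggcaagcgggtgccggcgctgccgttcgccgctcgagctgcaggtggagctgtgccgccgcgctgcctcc
Zfp143, chr7:110061452-110061701, plus strand: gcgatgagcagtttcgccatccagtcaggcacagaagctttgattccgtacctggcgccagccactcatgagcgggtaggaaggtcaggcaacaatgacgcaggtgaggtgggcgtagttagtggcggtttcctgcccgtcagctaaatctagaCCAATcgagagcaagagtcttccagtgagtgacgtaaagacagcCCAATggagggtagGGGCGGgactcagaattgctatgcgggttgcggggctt
The next 2 belong to genes with more acetylation over the TSS after apicidin.
Zfp512, chr5:31452186-31452435, plus strand: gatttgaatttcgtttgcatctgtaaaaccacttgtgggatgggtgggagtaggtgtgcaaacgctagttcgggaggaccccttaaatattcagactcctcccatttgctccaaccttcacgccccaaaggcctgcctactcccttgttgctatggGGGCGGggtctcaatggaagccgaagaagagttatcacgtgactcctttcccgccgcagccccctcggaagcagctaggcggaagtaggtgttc
Zfp719, chr7:43579336-43579585, plus strand: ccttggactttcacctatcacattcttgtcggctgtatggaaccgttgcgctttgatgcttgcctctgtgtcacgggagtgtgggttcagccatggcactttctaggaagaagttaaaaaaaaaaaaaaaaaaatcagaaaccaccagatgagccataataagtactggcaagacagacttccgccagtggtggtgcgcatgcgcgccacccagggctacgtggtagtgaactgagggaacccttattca

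In these 250 bases, Zfp518a and Zfp433 each held 1 GC box and 1 ETS core, Zfp786, Zfp746 and Zfp512 each held 1 GC box alone, Zfp143 held 2 CCAAT boxes and 1 GC box, and Zfp719 held none of the 4. Over 300 bases, 250 before and 50 after the start, the promoters of Zfp genes with a TSS region were less rich in CpG than acetylated promoters as a whole. The median GC content was 56.0% over 212 promoters of 167 Zfp genes and 61.3% over 7223 promoters of 5639 protein-coding genes with a TSS region, and the median number of CpG was 16 against 21. A GC box was found in 47.2% of the Zfp promoters and 64.6% of the acetylated promoters. GGAAGTG was found in 26.4% and 15.7%, CCAAT in 45.8% and 37.6%, and the ETS core in 24.1% and 19.7%. Among all 32851 RefSeq promoters of the same length, the shares were 35.7% for the GC box, 11.0% for GGAAGTG, 37.4% for CCAAT and 8.86% for the ETS core. The ETS-type site and the ETS core can overlap each other. Promoters of Zfp genes with a TSS region lower with apicidin held a median of 18.5 CpG and those of the others 14.5. A GC box was in 51.2% and 44.5% of these, and the ETS core in 17.9% and 28.1%. This split was not made over all genes, and a tie to the response was not tested. A match says only that the letters are there.

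After normalisation, acetylation was lower with apicidin at many Zfp promoters and higher at few. Among the 203 Zfp TSS regions, 76 fell and 5 rose in the authors' deposited table. That is 37.4% lower and 2.46% higher, against a background over all TSS regions of 39.4% lower and 8.01% higher, so the share that fell was near the background. The median log2 fold change was -0.25 at Zfp TSS regions and -0.24 at all TSS regions. The 5 that rose were those of Zfp658 (1.49 ± 0.36), Zfp821 (0.59 ± 0.15), Zfp719 (0.51 ± 0.17), Zfp512 (0.44 ± 0.15) and Zfp60 (0.28 ± 0.11; SE).

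Off the TSS, higher and lower calls were of about the same number. Of 578 such Zfp regions, 50 or 8.65% rose and 48 or 8.30% fell, beside 9.97% and 10% of all off-TSS regions. Over all 781 Zfp regions, 55 rose and 124 fell, which is 7.04% and 15.9%, beside 9.69% and 14.1% of the whole table. The balance of directions moved with where 0 was set: with fold changes centred on the better-covered regions, 74 Zfp regions were higher and 91 lower, and with the trend over base mean subtracted, 73 were higher and 82 lower. Between 1 and 10 kb from a TSS, 16 of 202 Zfp regions rose and 9 fell (7.92% and 4.46%, beside 9.09% and 6.53% of all regions at that distance), with a median of 0.25 for the Zfp regions and 0.16 for all regions at that distance.

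**Figure D1:**
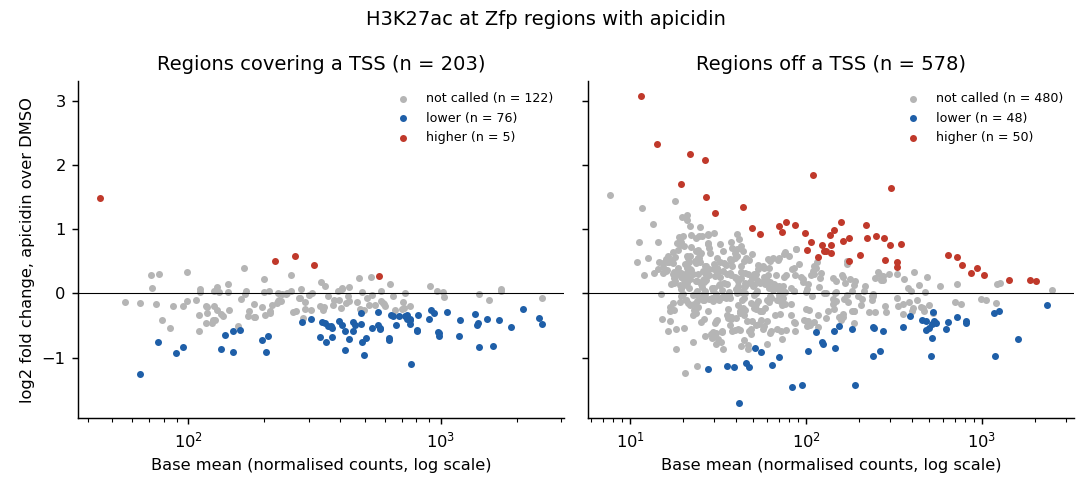
Each point is 1 Zfp region in the authors' deposited table, with its base mean (normalised counts, log scale) on the x axis and its log2 fold change of apicidin over DMSO on the y axis, coloured by call at an adjusted p under 0.05. Of the 203 regions over a TSS 76 lie below 0 as lower and 5 above as higher, whereas the 578 regions off a TSS have 48 lower and 50 higher.

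The 252 genes were next compared by 1 region each, that of highest base mean. Of these, 14 genes rose and 89 fell with apicidin, 5.56% and 35.3%, against 12% and 33.5% of all genes, and the median was -0.26 for Zfp genes against -0.18 for all genes. The 2 sets differ in kind of region, as the strongest region covered the TSS in 71.8% of Zfp genes and 54.0% of all genes. Over TSS regions alone the medians were -0.25 for Zfp and -0.24 for all. With centred values the split was 17 higher and 65 lower, and without the trend over base mean it was 18 higher and 57 lower. Among these strongest regions, and at base means of at least the median of all regions, the largest fall was at the promoter of Zfp518a, the first sequence printed above, with a log2 fold change of -1.10 ± 0.10 (SE; adjusted p 1.31e-26 by the authors' DESeq2). That is 0.467 of the normalised DMSO level, with a 95% interval from 0.408 to 0.533. Zfp143 fell by 0.97 ± 0.08 in the region 255 bp from its TSS and by 0.61 ± 0.09 over the TSS itself.

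Other large falls among the strongest regions were at Zfp433 (-0.96 ± 0.12) and at a region 50285 bp from the start of Zfp873 (-0.98 ± 0.12), both of which overlapped an RBPJ site by the authors' mark and share a chromosome 10 cluster. The promoter of Zfp873 fell less, by 0.45 ± 0.14. Zfp786 (-0.93 ± 0.26), Zfp956 (-0.92 ± 0.20), Zfp606 (-0.91 ± 0.33) and Zfp746 (-0.88 ± 0.14) completed the 8 lowest values of this ranking by 1 region a gene. Weaker regions of some genes fell further, such as one 23619 bp from Zfp568 (-1.42 ± 0.19) and one 16935 bp from Zfp213 (-1.46 ± 0.28). Zfp746, also called PARIS, represses the gene of the metabolic coactivator PGC-1alpha. The call of Zfp606 was lost when fold changes were centred or freed of the trend.

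In the same ranking by strongest region, 7 of the 8 largest rises lay off the TSS. Most rises with apicidin did so, with 50 of 55 over all Zfp regions and 4830 of 5462 over the whole table. The position of these 8 is thus not read as particular to Zfp genes. Zfp821 stood first, with 1.64 ± 0.15 (SE; adjusted p 8.41e-25 by the authors' DESeq2) in a region 1066 bp from its TSS, or 3.11 times the normalised DMSO level with a 95% interval from 2.53 to 3.82. Its TSS region rose as well, and so did another, weakly covered region with a base mean of 11.5. Zfp286 rose by 1.06 ± 0.26 in a region 27410 bp away, Zfp446 by 0.89 ± 0.16 at 8877 bp and Zfp646 by 0.77 ± 0.14 at 4991 bp. Zfp831 (0.75 ± 0.15), Zfp239 (0.62 ± 0.23) and Zfp687 (0.49 ± 0.15) also rose off the TSS, and Zfp719, whose strongest region covers the TSS, rose by 0.51 ± 0.17 there. Over all 781 Zfp regions, 17 rises and 12 falls reached a log2 change of at least 1 in size, beside 3.45% and 2.78% of the whole table, which are higher shares than those of the Zfp regions.

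The share of promoters that fell differed with the base mean of their TSS regions, among Zfp genes and among all genes. TSS regions of the whole table were divided into 3 bands of equal size by base mean, with edges at 318 and 704, a split chosen after the values were seen. The bands differed in width as well, with a median of 942 bp for Zfp TSS regions in the weak and 3120 bp in the strong band. The median SE of their apicidin values was 0.21 in the weak and 0.09 in the strong band. In the strong band, 30 of 43 Zfp TSS regions fell, which is 69.8%, against 50.7% of all TSS regions there. In that band 0 of 43 rose, against 12.9% of all, and 0 Zfp regions were higher at an unadjusted p under 0.05 in the authors' DESeq2 test. The median log2 fold change was -0.38 for Zfp and -0.23 for all TSS regions of the band. In the middle band 32 of 69 fell and 1 rose (46.4% and 1.45%, against 42.4% and 6.12% of all). In the weak band 14 of 91 fell and 4 rose (15.4% and 4.40%, against 24.9% and 5.06% of all).

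The counts of the strong band depended on where 0 was set. With centred fold changes 23 Zfp regions were lower and 0 higher (53.5% lower, against 38.8% of all), and with the trend over base mean subtracted 19 were lower and 2 higher (44.2% lower, against 33.0% of all). The 13 Zfp regions of this band that were not called lay between -0.22 at Zfp263 and 0.11 at Zfp3. They included the TSS regions of Zfp217, Zfp384, Zfp292 and Zfp64.

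**Figure D2:**
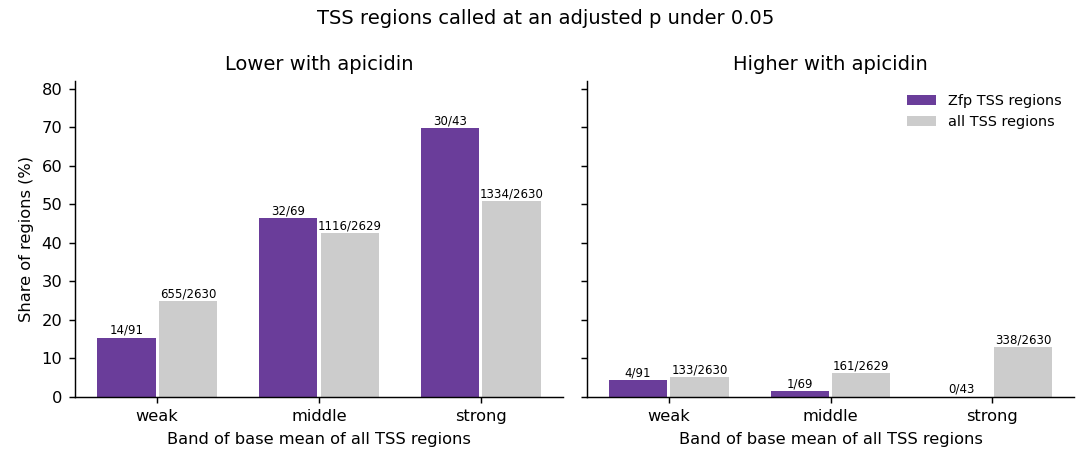
Bars give the share (%) of TSS regions called lower (left panel) and higher (right panel) with apicidin over DMSO at an adjusted p under 0.05, for Zfp and for all TSS regions in 3 bands of base mean, with called over tested regions above each bar. In the strong band 30 of 43 Zfp regions were lower and 0 higher, against 1334 and 338 of 2630 regions in all.

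Neighbouring Zfp genes were then grouped into clusters, taken as at least 4 genes whose strongest regions started within 500 kb of the next. There were 14 clusters with 103 genes, of which 38 fell and 3 rose with apicidin, a share of 36.9% lower beside the 33.5% of all genes. Outside them 51 of 149 genes fell and 11 rose. The cluster medians ran from -0.71 to 0.03 on the log2 scale, and 13 of 14 were below 0, as was the median of all genes (-0.18).

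The lowest median was that of a cluster on chromosome 6 (mm9 positions 47780135 to 48395042), where 7 of 8 genes fell. Next to Zfp786, Zfp956 and Zfp746, given above, Zfp777 fell by 0.85 ± 0.23, Zfp398 by 0.57 ± 0.13, Zfp467 by 0.43 ± 0.12 (a call lost without the trend over base mean) and Zfp212 by 0.40 ± 0.10 (SE) in the authors' deposited table. Zfp282 had -0.23 ± 0.13 and was not called. The promoters of Zfp786 and Zfp746 printed above stand within this cluster and each hold a single GC box.

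The largest cluster, 15 genes on chromosome 13 (mm9 positions 67161484 to 67915315), had no call in either direction by the authors' DESeq2. Its members included Zfp708, a KRAB protein that binds retroelements. Their median was -0.24, 11 of 15 values were below 0, and 2 were lower and 0 higher at an unadjusted p under 0.05. Their median base mean was 133 and their median SE 0.22, and the part of these in the absence of calls was not tested. A cluster of 13 genes on chromosome 7 that runs from Zfp84 to Zfp382 had 3 falls and a median of -0.01. Its largest fall, -0.75 ± 0.14, was at Zfp568, a repressor of a placental Igf2 transcript.

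**Figure D3:**
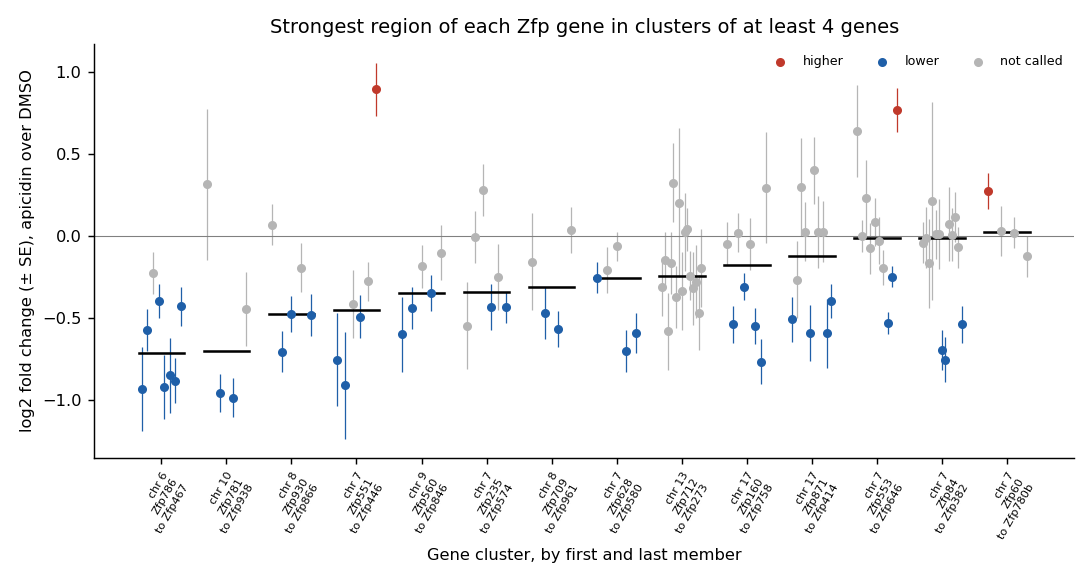
Each point is the strongest region of 1 Zfp gene, with its log2 fold change of apicidin over DMSO and its SE from the authors' deposited table, for the 14 clusters sorted by median (black line). The chromosome 6 cluster on the left has 7 of 8 genes lower, and the chromosome 13 cluster of 15 genes has 0 called.

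Some genes with several regions had calls in both directions. Such genes were not counted over the whole table, so their number is not read as particular to Zfp genes. With apicidin, 11 genes had both higher and lower regions: Zfp217, Zfp280d, Zfp438, Zfp523, Zfp592, Zfp617, Zfp629, Zfp644, Zfp658, Zfp869 and Zfp957. Zfp644, a partner of the H3K9 methyltransferases G9a and GLP, fell over its TSS (-0.81 ± 0.08, adjusted p 3.94e-23 by the authors' DESeq2) and rose 18928 bp away (1.07 ± 0.19). Its other 13 regions were not called, and all 13 had values above 0. Zfp629 fell by 0.53 ± 0.07 over its TSS and rose by 0.90 ± 0.21 at 17596 bp. Zfp617 fell by 0.57 ± 0.11 over its TSS and rose by 0.81 ± 0.20 at 2687 bp. Zfp658 went the other way, with a rise over its TSS and a fall of 1.15 ± 0.36 at 9082 bp, at base means under 50 in both regions.

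Zfp281, a repressor first studied in embryonic stem cells, was not called over its TSS (-0.15 ± 0.11) but rose in 4 of its 10 regions, by 0.75 to 1.04, at 7001 to 43923 bp. Zfp217, a corepressor-binding oncoprotein and the gene with most regions (45), had 4 higher regions, 1 lower region and 40 that were not called. Zfp704 had 39 regions, Zfp438 28, Zfp957 19 and Zfp148 18. Across genes whose TSS region fell with apicidin, 9 of 185 off-TSS regions rose and 19 fell (4.86% and 10.3%, beside 6.02% and 11.9% of the off-TSS regions of all genes with such a fall). Across Zfp genes whose TSS region did not fall, 29 of 248 rose and 9 fell (11.7% and 3.63%), and the share over all such genes was not computed. The median log2 fold change of these regions was -0.02 in the Zfp genes with a TSS fall and 0.21 in the Zfp genes without. It was -0.01 over all genes with a TSS fall, so the values are not read as particular to Zfp genes. These regions come from the same libraries and share loci, so the difference was given no test.

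**Figure D4:**
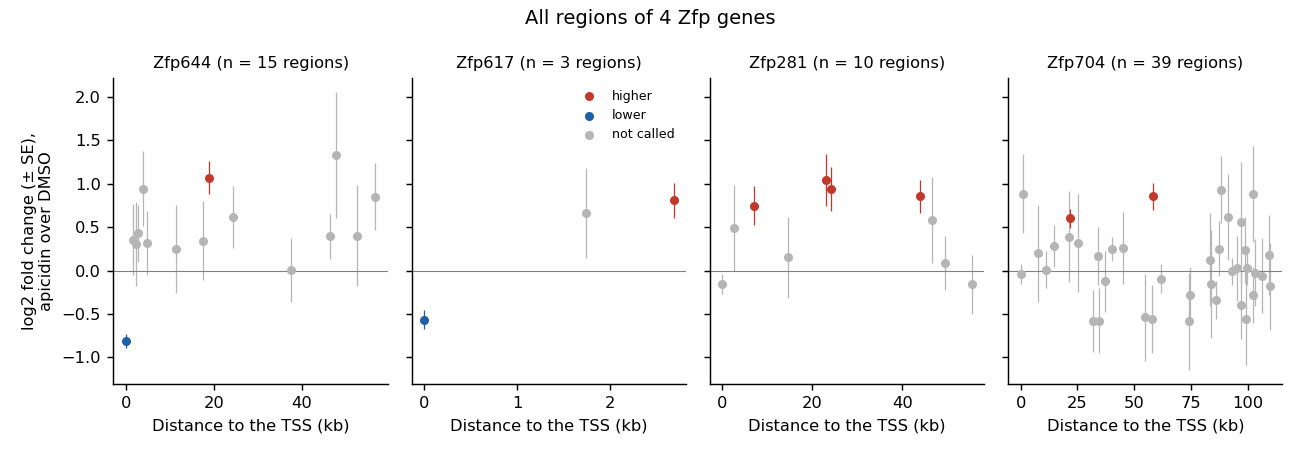
All regions of Zfp644, Zfp617, Zfp281 and Zfp704 are plotted by distance to the TSS (kb) against the log2 fold change of apicidin over DMSO with its SE, from the authors' deposited table. Zfp644 and Zfp617 are lower at distance 0 and higher at 18928 bp and 2687 bp, and Zfp281 has 4 higher regions, none of them over its TSS.

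Zfp genes of known function were read by role, with each gene's strongest region in the authors' deposited table. Of 8 genes with roles in lymphoid cells, 4 had a region and 3 of these fell with apicidin, beside 33.5% of all genes by strongest region. Over all TSS regions the share that fell was 39.4%. Zfp335, which thymocytes need to mature and leave the thymus, fell by 0.47 ± 0.08 (SE) at a base mean of 2531, the highest of any Zfp region. Zfp318, known for the choice of IgD transcripts in B cells, fell by 0.84 ± 0.26, and Zfp609 fell by 0.33 ± 0.11. The 4th was Zfp281. The call of Zfp609 was lost under centring and without the trend. Zfp423, Zfp521, Zfp608 and Zfp91 had no region under their symbols.

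Among 6 KRAB proteins that act on retroelements or imprints, 5 had a region and 3 fell with apicidin, beside the same 33.5% of all genes. Zfp809, which silences proviruses through their primer binding site, fell by 0.50 ± 0.13. Zfp568 fell by 0.75 at its promoter and further, by 1.42 ± 0.19, in a region 23619 bp away. Zfp445, a guardian of imprints, fell by 0.46 ± 0.10 in a region 27777 bp from its TSS, whereas its TSS region had -0.18 ± 0.13 and was not called. Zfp708 (-0.15 ± 0.17) and Zfp932 (-0.12 ± 0.25) were not called. Zfp57 had no region.

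Of 8 genes for RNA and ribosome functions, 7 had a region and 3 fell: Zfp207 (-0.47 ± 0.08), a spindle and splicing protein, Zfp326 (-0.49 ± 0.15), which couples splicing to transcription, and Zfp598 (-0.50 ± 0.11), the ubiquitin ligase of collided ribosomes. The share over all genes was 33.5%, and the call of Zfp326 was lost without the trend over base mean. Zfp622 and Zfp593, both linked to the large ribosomal subunit, had 0.04 ± 0.11 and -0.08 ± 0.16. Zfp106 (-0.12 ± 0.16) and Zfp346 (-0.00 ± 0.16) were not called either. Of 12 broad regulators, 11 had a region, with 3 falls (Zfp143, Zfp592 and Zfp532) and 1 rise (Zfp687), or 27.3% and 9.09%, near the 33.5% and 12% of all genes. Zfp592 fell by 0.32 ± 0.08 and Zfp532 by 0.35 ± 0.13, and without the trend both calls were lost, that of Zfp532 under centring too. Zfp687, Zfp592 and Zfp532 encode proteins found together in 1 chromatin complex in human cells. Zfp410, the activator of Chd4, had -0.25 ± 0.10 (adjusted p 0.0637 by the authors' DESeq2).

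The partners of KRAB proteins were counted over a list of 34 genes, of which 32 had a region. With apicidin 13 fell and 1 rose, beside the 33.5% lower and 12% higher of all genes, and the count of rises was 3 under centring and 5 without the trend. The strongest region covered the TSS in 75% of these partner genes and 54.0% of all genes, and 39.4% of all TSS regions fell. Dnmt3b, a DNA methyltransferase, had -1.22 ± 0.22, the remodeller gene Smarcad1 -0.79 ± 0.14 and the deacetylase gene Hdac2 -0.73 ± 0.10 (SE). The riser was Cbx5, which encodes HP1alpha, with 0.44 ± 0.11. The central pair was not called: Trim28 had -0.19 ± 0.08 (adjusted p 0.0732 by the authors' DESeq2) and Setdb1 -0.00 ± 0.12. With GSI, 1 of 29 tested partner genes rose and 1 fell, 6.90% in all against 14.5% of all genes tested. The riser was Atf7ip, which stabilises Setdb1, with 0.22 ± 0.07 in a region 46744 bp from its TSS. That same region fell by 0.44 ± 0.07 with apicidin. Mta1, a NuRD subunit gene, fell by 0.34 ± 0.12 with GSI in a region 70 bp from its TSS. In other finger families, 0 of 33 Zbtb genes rose and 16 (48.5%) fell with apicidin. Of 14 Zscan and Zkscan genes, 1 rose and 1 fell (7.14% each). Of 18 Klf and Sp genes, 6 (33.3%) rose and 8 (44.4%) fell. Of 13 Zc3h genes, 0 rose and 4 (30.8%) fell, beside 12% higher and 33.5% lower of all genes. At an unadjusted p under 0.05 0 Zbtb and 0 Zc3h genes were higher. The strongest region covered the TSS in 38.9% of Klf and Sp, 64.3% of Zscan and Zkscan, 72.7% of Zbtb and 92.3% of Zc3h genes. With the TSS region for each gene, 0 genes of these families rose and 22 fell, so the families are not ranked.

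GSI moved few Zfp regions. Of the 411 Zfp regions with an adjusted p for GSI, 22 rose and 14 fell, 8.76% in all, against 13.8% of all regions tested. For the other 370 the authors gave no adjusted p, and these were kept as untested. Over the TSS, 6 of 197 tested regions rose and 5 fell, 5.58% against 9.61% of all TSS regions tested. In the weak, middle and strong bands of base mean, 4 of 85, 3 of 69 and 4 of 43 tested Zfp TSS regions were called. That is 4.71%, 4.35% and 9.30%, against 4.92%, 6.62% and 16.8% of all TSS regions tested there, so the shares were near each other in the weak band. By strongest region, 12 of 230 tested genes rose and 9 fell, 9.13% against 14.5% of all genes tested, and 22 genes were untested. No called change with GSI reached a log2 value of 1, and the median over tested Zfp regions was 0.05.

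By strongest region of each gene, the lowest called values with GSI were at Zfp385b (-0.81 ± 0.22, 41312 bp from the TSS), Zfp599 (-0.69 ± 0.23), Zfp597 (-0.62 ± 0.17), Zfp445 (-0.62 ± 0.11), Zfp956 (-0.59 ± 0.20), Zfp704 (-0.41 ± 0.12), Zfp53 (-0.31 ± 0.09) and Zfp957 (-0.27 ± 0.07; SE). Zfp445 had the smallest adjusted p of these falls, 2.51e-07 by the authors' DESeq2. The highest by the same rule were at Zfp572 (0.62 ± 0.10, 42132 bp away), Zfp512 (0.52 ± 0.15), Zfp446 (0.49 ± 0.17), Zfp821 (0.45 ± 0.16), Zfp773 (0.45 ± 0.13), Zfp467 (0.44 ± 0.12), Zfp831 (0.44 ± 0.16) and Zfp963 (0.41 ± 0.15). Zfp957 had 1 region higher and 1 lower with GSI.

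RBPJ overlapped 34 of the 781 Zfp regions by the authors' mark, 19 of them over a TSS. With GSI, 2 of the 33 tested ones rose and 1 fell, and with apicidin 2 of 34 rose and 10 fell. The Zfp shares were 9.09% called with GSI, and 5.88% higher and 29.4% lower with apicidin, beside 15.2%, 9.1% and 36.9% of all RBPJ-overlapping regions. The changes with GSI were at Zfp512, whose TSS region rose by 0.52 ± 0.15, at Zfp597, whose TSS region fell by 0.62 ± 0.17, and at a region 440 bp from the TSS of Zfp13, which rose by 0.67 ± 0.18 (SE; adjusted p 0.00358 by the authors' DESeq2). With apicidin the same 3 regions had 0.44 ± 0.15, -0.39 ± 0.16 and 0.60 ± 0.18, of which the Zfp597 value was not called.

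The core of the RBPJ recognition site, TGGGAA, was searched on both strands of the RefSeq promoters. It was in 9 of 21 promoters of the Zfp genes with an RBPJ mark over the TSS, or 42.9%, from 7 of 18 genes that could be matched. The share was 29.6% over 919 promoters of all genes with such a mark, 30.7% over Zfp promoters with a TSS region and 25.6% over all promoters. Some genes have several promoters. Counted by gene, 241 of 694 protein-coding genes with such a mark held the core, so the 7 of 18 Zfp genes were near the background. Because the site is what RBPJ is known to bind, the stretch around the match nearest the start, 46 bases of the gene's strand with the core in capitals (GRCm38.p6), is printed for these 7 genes.
Zfp1, chr8:111643396-111643441, plus strand: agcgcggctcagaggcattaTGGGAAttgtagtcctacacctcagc
Zfp213, chr17:23564228-23564273, minus strand: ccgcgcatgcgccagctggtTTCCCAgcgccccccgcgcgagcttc
Zfp263, chr16:3743894-3743939, plus strand: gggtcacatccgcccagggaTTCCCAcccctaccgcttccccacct
Zfp473, chr7:44748471-44748516, minus strand: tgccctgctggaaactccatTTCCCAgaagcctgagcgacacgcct
Zfp566, chr7:30090554-30090599, minus strand: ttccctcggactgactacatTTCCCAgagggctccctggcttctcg
Zfp607, chr7:27860504-27860549, plus strand: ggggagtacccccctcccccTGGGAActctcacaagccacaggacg
Zfp628, chr7:4915048-4915093, plus strand: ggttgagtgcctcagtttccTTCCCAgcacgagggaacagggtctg
Of the TSS regions of these genes, that of Zfp628 was the 1 called with apicidin (-0.25 ± 0.10), and 0 of the 7 TSS regions were called with GSI by the authors' DESeq2. Their GSI values ran from -0.21 at Zfp473 to 0.23 at Zfp566. The promoters of Zfp512 and Zfp597 held no match in their windows.

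Apicidin and GSI were then compared region by region, as the apicidin minus the GSI log2 fold change. Since the DMSO libraries enter both, the SE used is an upper bound. Of 781 Zfp regions, 9 were higher with apicidin than with GSI and 65 lower, 9.48% in all against 8.61% of all regions. Over the TSS, 0 of 203 were higher and 46 lower, 22.7% against 25.7% of all TSS regions, with 3 higher at an unadjusted p under 0.05. With centred values 16 regions were higher and 43 lower, and without the trend 16 were higher and 35 lower. The smallest p-values were at Zfp143 (-1.07 ± 0.12), Zfp518a (-1.19 ± 0.14) and Zfp644 (-0.94 ± 0.11), whose GSI values were 0.10 ± 0.08, 0.09 ± 0.10 and 0.12 ± 0.08. They were followed by Zfp704, a region of Zfp958 63196 bp from its TSS (-0.83 ± 0.11), Zfp207 (-0.70 ± 0.11) and Zfp629 (-0.61 ± 0.10; SE).

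Zfp704 had a region, 21792 bp from its TSS, that was higher with apicidin (0.60 ± 0.11) and lower with GSI (-0.71 ± 0.12). The difference of 1.31 ± 0.16 (adjusted p 2.07e-13, Benjamini-Hochberg over all regions) makes the level after apicidin 2.48 times that after GSI, with a 95% interval from 1.99 to 3.09. Its TSS region was not called with apicidin (-0.04 ± 0.11) and fell with GSI (-0.41 ± 0.12).

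The opposite pattern, lower with apicidin and higher with GSI, was called in 5 regions. They were those of Zfp207 (-0.47 and 0.23), Zfp219 (-0.38 and 0.21), Zfp672 (-0.28 and 0.35), Zfp467 (-0.43 and 0.44) and Zfp773 (-0.41 and 0.45), with the apicidin value first in each. All 5 had 1 of their calls lost when the trend over base mean was subtracted, the GSI call for Zfp207 and Zfp219 and the apicidin call for the other 3. In all, 26 Zfp regions were called with both treatments, 12 higher in both, 8 lower in both and 6 in opposite directions. No share is drawn from these numbers, since both contrasts use the same DMSO libraries. The same counts were not made over all regions, so they are not read as particular to Zfp regions.

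**Figure D5:**
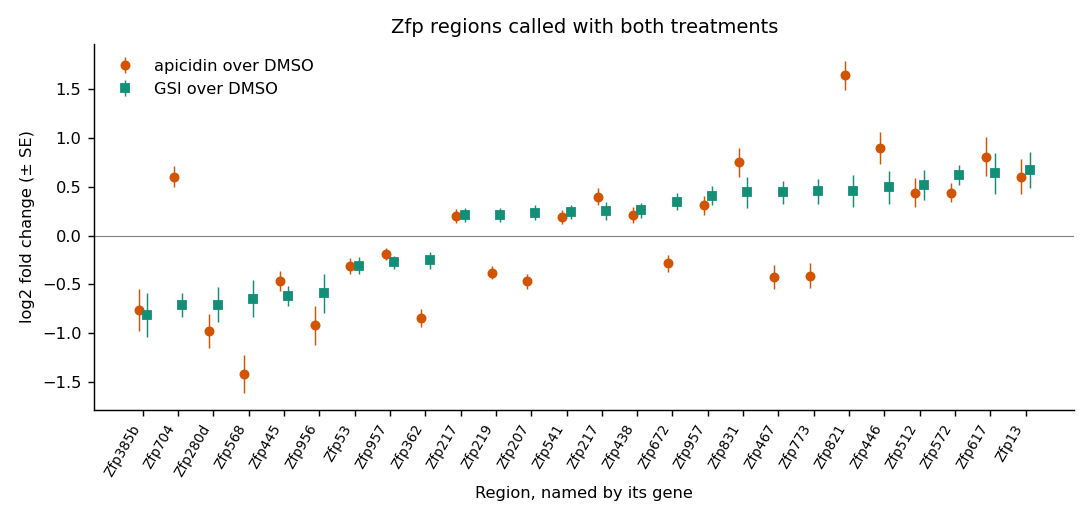
The 26 Zfp regions called with both treatments are ordered by their GSI value, with log2 fold changes over DMSO and SE from the authors' deposited table for apicidin (circles) and GSI (squares). Zfp704 has apicidin above and GSI below 0, and Zfp207, Zfp219, Zfp467, Zfp672 and Zfp773 have apicidin below and GSI above 0.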

How the data were processed

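Per the submitters' processing notes, FastQC, Bowtie2, SAMtools and deepTools were used with the mouse build mm9, without versions. For the region caller and the read counter, the sources used here give no name. The authors deposited 1 table of regions, whose columns are those of DESeq2 per the file headers. The authors' base mean, a signal, averages normalised counts. The log2 fold changes with SE, the Wald score and both raw and adjusted p-values were used as deposited by the authors. Fold changes were read as over DMSO, since the labels hold no other control. No value per library is in the table, so the depth is unknown and no SD over samples can be given. Regions without an adjusted p for GSI (base mean under 72.1) were kept as untested.

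Counts of calls used the deposited adjusted p at 0.05. The difference of the deposited fold changes was tested two-sided against the normal distribution, with p-values adjusted by Benjamini-Hochberg over the whole table. The 95% intervals of folds come from the deposited SE. Genes were named by rule: by the strongest region of each gene, the 8 largest called changes in each direction at base means of at least the median (61.3), the role lists, the 8 smallest p of apicidin against GSI, the 5 genes with most regions, genes with calls in both directions, and RBPJ-marked regions called with GSI. Other genes were named after their values were seen. The members, lists and bands of base mean were chosen with earlier results of these data known. The alternatives were an adjusted p of 0.01, centred fold changes, subtraction of a running median over base mean (2001 regions), a filter at the median base mean, and the TSS region in place of the strongest one. RefSeq promoters (GRCm38.p6) were matched by symbol, for 246 members by current symbol and 6 by synonym, and no coordinates were carried between builds. Python 3.11.15, pandas 2.3.3, NumPy 2.4.6, SciPy 1.17.1 and matplotlib 3.10.9 were used, and the scripts were tested on simulated data. The input libraries and the RBPJ libraries themselves were not analysed here beyond the RBPJ mark.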

Additional observations from a re-analysis of the deposited data

How the results depend on the processing

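Of 527 alternative values for the 132 named Zfp results, 490 kept their direction and side of the threshold, 34 lost a call, 3 gained one and 0 reversed, over a stricter threshold, centring, removal of the trend and the filter on low base means. At an adjusted p under 0.01, the counts that moved by over 1.5 times were 9 Zfp regions higher with GSI, 4 higher and 40 lower between apicidin and GSI, 8 Zfp genes higher with apicidin and 6 higher with GSI, 0 corepressor genes higher and 0 lower with GSI, and in other finger families 1 higher and 2 lower with GSI. Centring subtracted a median of -0.10 from the apicidin values and so raised them. It gave 16 higher and 43 lower between the treatments and 3 corepressor genes higher with apicidin. Without the trend over base mean there were 82 Zfp regions and 57 Zfp genes lower with apicidin, 16 higher and 35 lower between the treatments, 5 corepressor genes higher with apicidin and 2 lower with GSI, and 19 lower and 2 higher in the strong band of base mean, an alternative chosen after seeing the data. Above the median base mean alone, 14 regions were higher between the treatments and 2 corepressor genes higher with apicidin. With the TSS region for each gene, 5 Zfp genes were higher with apicidin, 5 higher and 5 lower with GSI, 0 corepressor genes higher and 0 lower with GSI, 0 genes of other families higher with apicidin and 3 lower with GSI. The cause of these moves was not tested.

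No paired analysis was possible because the table holds no value per library, and for the same reason leaving out each replicate was not run. The median SE of apicidin values was 0.21 in the weak and 0.09 in the strong band of Zfp TSS regions, so smaller changes could pass the threshold in the strong band. Similar Zfp genes share sequence, and how reads that map to several of them were handled was not stated in these sources.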
